A study of Mus musculus with 18 samples.

Results

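The cytoplasmic ribosomal protein genes are those encoding the protein part of the 80S ribosome, and they were taken here as every gene of the deposited count table whose symbol has the form of a large-subunit (Rpl), small-subunit (Rps) or stalk (Rplp) name with a number, plus Rpsa. The rule found 85 genes among 24116, and all 85 passed the filter on low counts that left 14901 genes to be tested. They comprised 77 core members, of which 43 belong to the large subunit, 31 to the small subunit and 3 to the stalk, 7 paralogues of core members (Rpl3l, Rpl7l1, Rpl10l, Rpl22l1, Rpl39l, Rps4l and Rps27l), and Rpl32l, which was set apart after its annotation as a processed pseudogene was seen. RNA was measured as polyadenylated RNA in 18 libraries from embryonic stem (ES) cells of the mouse strain 129S6/SvEvTac, cultured with serum and leukaemia inhibitory factor. The groups were wild-type cells (n = 8), Snf2h ko cells lacking the ISWI chromatin remodelling ATPase encoded by Smarca5 (n = 5), ko cells re-expressing wild-type Snf2h (wild-type add-back, n = 3) and ko cells re-expressing an ATPase mutant of it (mutant add-back, n = 2). Cells were grown on gelatin, except that the ko line and the mutant add-back line were first kept on embryonic fibroblast feeders for some passages after thawing. The labels speak of biological replicates without saying whether they were separate cultures or clones, so every p-value measures only the spread between these libraries.

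The ribosome joins amino acids on its large subunit and reads the message on its small subunit, and the stalk recruits the GTPase factors that drive each step of elongation. In most cells each core protein is made in matched amounts, its mRNA carries a pyrimidine tract at the very start (the 5′ TOP motif) through which mTOR signalling and Larp1 set its translation, and unassembled proteins are degraded. A few core genes have paralogues, several of which arose from processed mRNA copied back into the genome, and Rpl10l and Rpl39l are known for high expression in male germ cells, where they stand in for genes on the silenced X chromosome.

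Smarca5 was at 185 ± 29.1 CPM (counts per M counts of the scaled library total; SD, n = 8) in wild-type libraries and at 9.36 ± 0.590 (n = 5) in ko libraries. It was at 86.0 ± 3.63 (n = 3) in wild-type add-back and 58.5 ± 14.3 (n = 2) in mutant add-back libraries, and no ko library overlapped any other group. Library totals ran from 15.3 to 37.0 M counts and fell into 3 depth sets: 11 libraries under 20 M (3 wild type, 3 ko and all add-backs), 4 between 20 and 30 M (wild type 1 and 2, ko 1 and 2) and 3 above 30 M (wild type 3, 4 and 5). The labels name no batch. Between these sets replicate pairs had chi-square values per gene of 30.8 to 67.9, above the 1.44 to 13.0 within the low set and the 1.84 to 2.50 within the middle set. The 3 high-depth libraries also differed among themselves, at 15.8 to 40.6. Counts of called members are therefore given for every comparison over all libraries and also within a set. Values of single genes are given within a set for some comparisons only. The comparisons share libraries: the same ko or wild-type libraries serve in several of them. In bulk RNA, fewer cells of a type and less RNA per cell cannot be told apart.

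The 3 paralogues called lower without Snf2h differ from their core partners along the coding sequence, which bears on whether reads can be assigned to the right copy. The 60 coding bases below run 5′ to 3′ from the start codon on the coding strand (GENCODE M21 transcripts, GRCm38), and capitals mark the positions at which the pair differ.
Rps4l: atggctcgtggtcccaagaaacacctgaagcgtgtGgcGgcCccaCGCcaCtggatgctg
Rps4x: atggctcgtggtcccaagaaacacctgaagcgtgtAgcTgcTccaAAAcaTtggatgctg
Rpl39l: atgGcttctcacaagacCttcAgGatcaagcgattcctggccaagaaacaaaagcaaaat
Rpl39: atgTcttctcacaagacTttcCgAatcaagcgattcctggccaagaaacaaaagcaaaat
Rpl10l: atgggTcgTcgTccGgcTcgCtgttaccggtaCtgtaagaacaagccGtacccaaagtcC
Rpl10: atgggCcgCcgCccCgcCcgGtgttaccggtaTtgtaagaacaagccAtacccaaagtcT

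Over the aligned coding sequence, Rps4l and Rps4x were 80.1% identical with a longest identical run of 35 bases, Rpl39l and Rpl39 85.3% with a run of 38, and Rpl10l and Rpl10 84.8% with a run of 23. No pair shared any stretch of 50 bases. Of all 50-base stretches in the Rps4l transcript 85.1% occurred in no other GENCODE gene, the rest being shared with Rps4l-ps, and the value was 100% for Rpl39l and 92.4% for Rpl10l. The core members were less distinct: their median was 56.0% (1.35% to 100%), since many have processed pseudogenes, so their counts depend on how reads matching several places were handled, which is not given in the sources used here.

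Rps4l fell by far more than any core member in the ko and returned with the wild-type ATPase. The gene lies on chromosome 6 at chr6:148354656-148355596 (GRCm38), an autosomal copy of the X-linked small-subunit gene Rps4x, and GENCODE lists it as a processed transcript that keeps an open reading frame of 789 bases against 792 in Rps4x. Its level in the 8 wild-type libraries ran from 288 CPM through a median of 340 to 384. The 5 ko libraries held 85.1, 79.4, 142, 151 and 141 CPM, the 3 wild-type add-back libraries 347, 372 and 314, and the 2 mutant add-back libraries 156 and 128. Every ko library lay far below the lowest wild-type library, every wild-type add-back library lay within the wild-type range, and both mutant libraries lay with the ko. The change from wild type to ko was −1.49 on the log2 scale (SE 0.14, edgeR quasi-likelihood test, Benjamini-Hochberg adjusted p = 8.6e-08), and it was −1.85 within the middle set and −1.26 within the low set.

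Adding back wild-type Snf2h raised Rps4l by 1.53 over the ko (SE 0.17, edgeR adjusted p = 1.1e-06) and left it 0.04 from wild type (SE 0.16, edgeR adjusted p = 0.94). With the ATPase mutant the change from the ko was 0.25 (SE 0.20, edgeR adjusted p = 0.55), and the direct test of the add-backs gave 1.28 in favour of the wild-type protein (SE 0.23, edgeR adjusted p = 0.00026). Within the low set the changes from the ko were 1.25 with wild-type Snf2h (edgeR adjusted p = 5.6e-11) and −0.03 with the mutant (edgeR adjusted p = 0.88). Rps4x, the core partner, moved by 0.04 from wild type to ko (SE 0.08, edgeR adjusted p = 0.65). Its own libraries ran from 621 to 835 CPM in wild type and from 691 to 819 in the ko, so the ko range lay inside that of wild type. Rps4l sits within Tmtc1, a gene on the opposite strand, with 0 exonic bases in common. Tmtc1 was at 8.77 ± 2.83 CPM in wild type and 3.47 ± 0.350 in the ko, a change of −1.34 (SE 0.22, edgeR adjusted p = 4.2e-05). It was at 6.67 ± 0.621 CPM in wild-type and 2.28 ± 1.04 in mutant add-back libraries. The library kit is stranded but the strand setting of the counting is not given in the sources used here, and any part of reads from the opposite strand in these values was not tested.

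Rpl39l, the paralogue of the X-linked large-subunit gene Rpl39 that lines the exit tunnel, was the next largest change (chr16:10170197-10174911). Wild-type libraries ran from 24.1 CPM through a median of 26.7 to 32.0, and the ko libraries held 8.30, 9.50, 15.0, 14.7 and 16.8 CPM. The 3 wild-type add-back libraries held 19.2, 18.9 and 19.6 CPM, and the 2 mutant add-back libraries 23.8 and 17.7. The ko lay wholly below wild type, and both add-backs lay above the ko and below the lowest wild-type library. The ko change was −1.10 (SE 0.15, edgeR adjusted p = 5.2e-06), and it was −1.81 within the middle set and −0.75 within the low set. Against the ko over all libraries, wild-type Snf2h raised Rpl39l by 0.59 (SE 0.18, edgeR adjusted p = 0.013), while the mutant gave 0.70 (SE 0.20, edgeR adjusted p = 0.16). Within the low set, which holds all add-back libraries, both were called. The rises there were 0.31 with wild-type Snf2h (edgeR adjusted p = 0.015) and 0.42 with the mutant (edgeR adjusted p = 0.018). The mutant's rise leaned on mutant add-back library 1, at 23.8 CPM against 17.7 in the other and 14.7 to 16.8 in the low-set ko. Without library 1 the median change of the 85 members from the ko in this set was 0.02, against 0.19 with it. Under the alternatives run, the mutant's rise of Rpl39l ran from 0.20 to 0.89. The wild-type add-back stayed below wild type in that set, at −0.44 (edgeR adjusted p = 0.0035). Over all libraries the difference between the add-backs, −0.11 (SE 0.23, edgeR adjusted p = 0.74), did not pass the test.

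Rpl10l, a copy on chromosome 12 of the X-linked gene Rpl10 whose protein joins late in large-subunit assembly, showed a smaller decrease (chr12:66283379-66284401). Wild-type libraries ran from 18.2 CPM through a median of 26.8 to 31.4, and the ko libraries held 15.2, 12.9, 18.5, 21.4 and 20.1 CPM. The wild-type add-back libraries held 28.5, 28.3 and 25.5 CPM and the mutant libraries 29.7 and 23.4. The ko and wild-type ranges overlapped through the high-depth wild-type libraries, whereas every add-back library lay above every ko library. The ko change was −0.54 (SE 0.14, edgeR adjusted p = 0.0032), and it was −1.1 within the middle set and −0.46 within the low set. Over all libraries, Rpl10l with wild-type Snf2h stood 0.64 above the ko (SE 0.17, edgeR adjusted p = 0.0058). The mutant add-back stood 0.60 above the ko (SE 0.20, edgeR adjusted p = 0.18). Within the low set, which holds all add-back libraries, both were called. The rises there were 0.46 with wild-type Snf2h (edgeR adjusted p = 0.00078) and 0.41 with the mutant (edgeR adjusted p = 0.02). Again mutant add-back library 1 stood higher, at 29.7 CPM against 23.4 in the other and 18.5 to 21.4 in the low-set ko. Under the alternatives run, the mutant's rise of Rpl10l ran from 0.23 to 0.75. Unlike for Rps4l, the add-backs were 0.05 apart over all libraries (SE 0.22, edgeR adjusted p = 0.89).

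**Figure D1:**
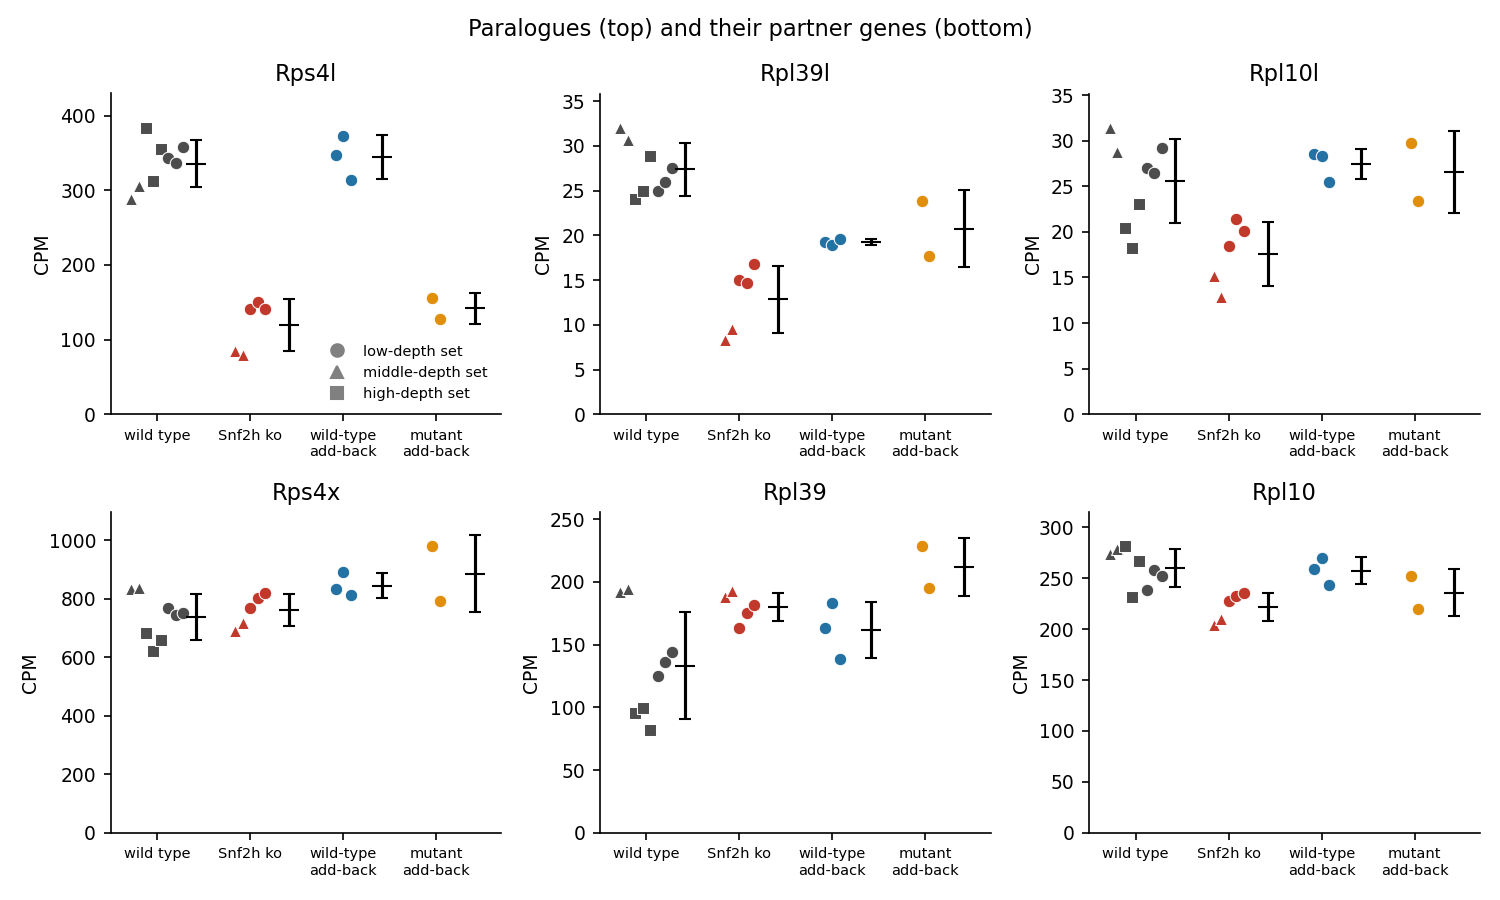
Scaled level in CPM (vertical axes from 0) of Rps4l, Rpl39l and Rpl10l (top) and of their core partners Rps4x, Rpl39 and Rpl10 (bottom) in each library by group, with the group mean and SD beside the points and marker shapes for the depth sets. The 5 ko libraries of Rps4l lie between 79.4 and 151 CPM against 288 to 384 in wild type, and Rpl39 differs between depth sets of wild type, from 81.7 to 194 CPM.

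The other 4 paralogues showed no called change over all libraries. Rpl22l1, the paralogue of Rpl22, stood 0.56 higher in the ko (SE 0.24, edgeR adjusted p = 0.057), but its 8 wild-type libraries split: the high-depth libraries held 27.5, 29.7 and 28.4 CPM and the others 65.9 to 79.0. Within sets its difference was 0.16 (middle, edgeR adjusted p = 0.15) and 0.19 (low, edgeR adjusted p = 0.045). Rps27l, a paralogue known as a p53 target, differed by 0.28 (SE 0.14, edgeR adjusted p = 0.090). Rpl7l1, a paralogue of Rpl7, differed by −0.18 over all libraries (edgeR adjusted p = 0.23), yet was called lower in both sets, by −0.33 (edgeR adjusted p = 0.0077) and −0.32 (edgeR adjusted p = 0.0024). Rpl3l, the muscle paralogue of Rpl3, was barely present, at 2.04 ± 0.269 CPM in wild type and 2.32 ± 0.531 in the ko (edgeR adjusted p = 0.39).

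The core members were abundant and steady. Together the 85 genes took 3.14% to 4.32% of all counts, with group means of 3.51% ± 0.242 (SD, n = 8) in wild type and 3.51% ± 0.0919 (n = 5) in the ko. Wild-type add-back libraries held 3.61%, 3.76% and 3.31%, and mutant add-back libraries 4.32% and 3.55%. The groups overlapped, and mutant library 1 stood above every other library. Within wild type the low-depth libraries held 3.14%, 3.27% and 3.28%, below the 3.58% to 3.75% of the other 5. The 5 members with the highest level per length carried a large part of this share, since without them the group means were 2.48%, 2.51%, 2.54% and 2.85% for wild type, ko, wild-type and mutant add-back.

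**Figure D2:**
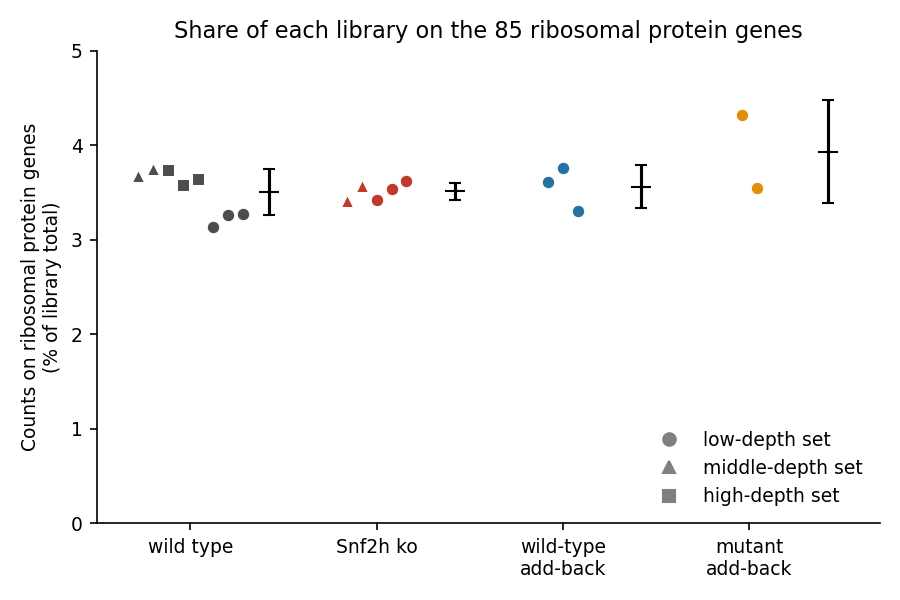
Share of each library's counts on the 85 ribosomal protein genes (percent of the library total, axis from 0) by group, with the group mean and SD beside the points and marker shapes for the depth sets. Mutant add-back library 1, at 4.32%, lies above the other libraries, and the 3 low-depth wild-type libraries, at 3.14% to 3.28%, lie lowest.

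Levels per length, in CPM per kb of exon, spanned a 71.7-fold range among core members, from 34.0 for Rpl29 to 2440 for Rpl8, with a median of 328. Among the highest were Rpl8 and Rpl4, large-subunit proteins near the catalytic centre and the exit tunnel, Rplp1 of the stalk and Rpl7 of the large subunit. Across the 18 libraries a core member varied by a median of 1.56-fold between its lowest and highest library, and 69 of 77 varied by less than 2-fold. Rps4l, at 272 CPM per kb, was at the level of many core genes, whereas Rpl10l and Rpl39l, at 23.3 and 26.4, were below every core member and Rpl3l, at 1.41, was the lowest of all. Across the 85 genes the share of unique 50-base stretches and the level per length had a Spearman correlation of 0.02, a description over genes that share libraries. So level differences between core members are uncertain where pseudogenes match, as for Rps27 with 1.35% of unique stretches and Rpl29 with 33.2%.

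**Figure D3:**
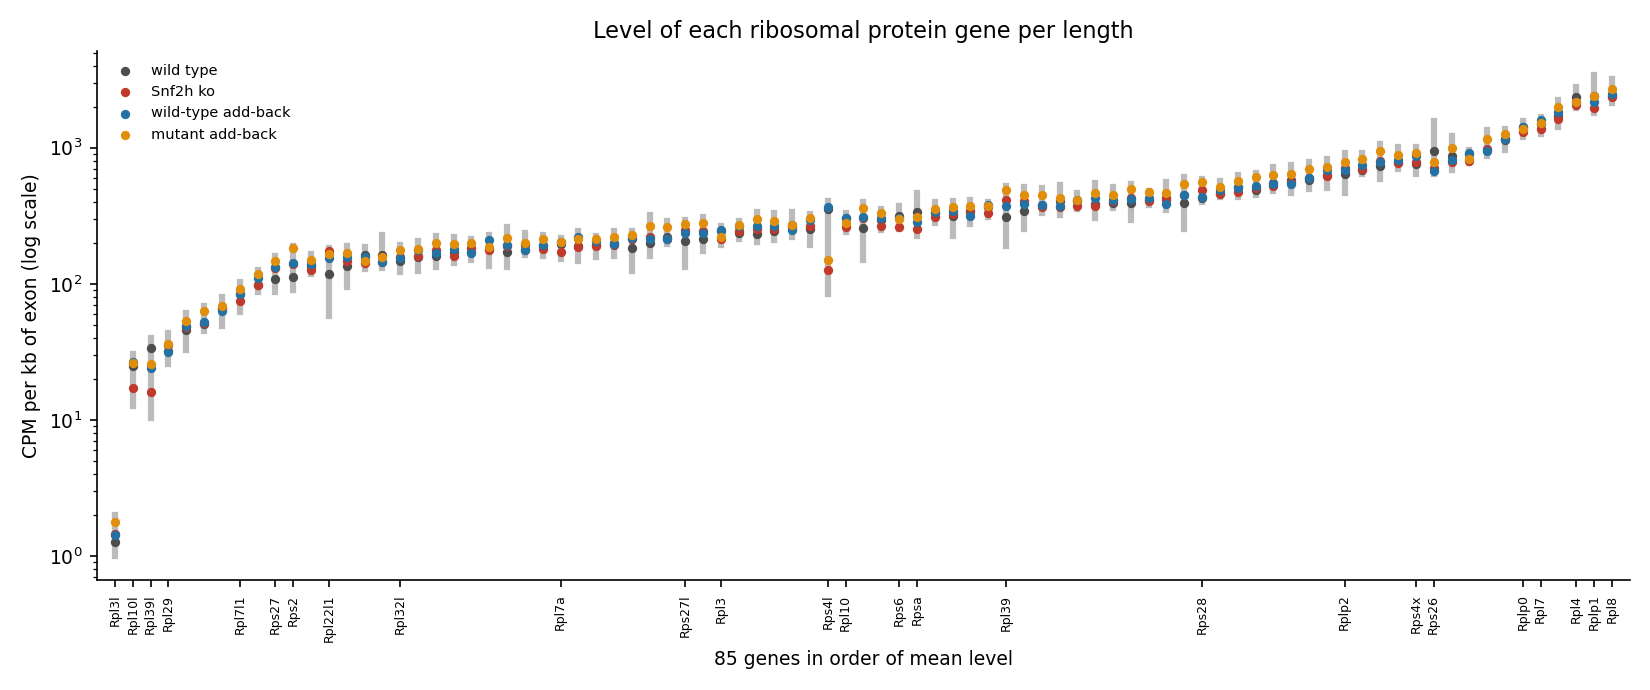
Level of each of the 85 genes in CPM per kb of exon (log scale) in order of the mean over libraries, with a point for each group mean and a grey bar from the lowest to the highest library; gene names mark paralogues and other genes named in the text. The group means of nearly every gene lie on top of each other, and Rps4l stands out by the gap between wild type and wild-type add-back on the upper side and ko and mutant add-back on the lower.

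The promoters of the members share features that the counts did not choose. RefSeq (GRCm38.p6) windows of 300 bases, from 250 before to 50 after the start, were at hand for 64 members (76 windows), and shares were set beside all 32851 windows. The motif CCGGAAG, the core bound by ETS factors such as Gabpa, was found on either strand in 35.5% of member windows against 8.86% of all. AAGATGGC, the YY1 motif, was found in 10.5% against 2.75%. TATAAA was in 10.5% against 13.6%. A run of at least 8 pyrimidines anywhere from 20 bases before to 30 after the annotated start was found in 47.4% of member windows against 19.0% of all. A 5′ TOP begins at the first base of the mRNA, which this search did not require. The 30 bases below, 20 before and 10 after the annotated start on the gene's own strand, show such tracts in core genes beside Rpl10l, whose window has none of that length, with runs of 5 or more pyrimidines in capitals. The tract of Rps6 spans the annotated start, and that of Rpl4 ends before it.
Rps6, chr4:86857358-86857387, minus strand: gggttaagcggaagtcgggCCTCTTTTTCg
Rpl4, chr9:64173367-64173396, plus strand: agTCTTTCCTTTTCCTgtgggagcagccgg
Rpl10l, chr12:66284392-66284421, minus strand: agaaatttggCCTCCattttgcggctggcg

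Loss of Snf2h left the core ribosomal protein mRNAs close to wild type. All 77 core members lay within 0.5 log2 of wild type, 69 within 0.25, with a median of −0.02 (and −0.01 over all genes tested). The ends were Rps26 at −0.42 (edgeR adjusted p = 0.061) and Rpl39 at 0.43 (edgeR adjusted p = 0.038). Of the 85 members, 4 were called higher and 9 lower, 15.3% of them, where 55.0% of all genes were called at an edgeR adjusted p under 0.05 (26.8% higher and 28.2% lower). By subunit, 1 large-subunit member was called higher and 3 lower, 3 small-subunit members higher and 3 lower, and none of the 3 stalk members in either direction. With library size alone, and likewise when libraries were scaled to the summed members, the median of the 85 was 0.04 and that of all genes 0.05, so its sign follows a shift common to all genes.

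The core members called lower included Rpsa, which binds the small subunit near the mRNA exit and is also known as a laminin receptor precursor, Rps6, the S6 kinase substrate, Rpl10, Rpl3, which sits near the peptidyl transferase centre, and Rpl7a. Rpl3 ran from 454 to 515 CPM (median 473) in wild type and held 377, 406, 439, 426 and 438 in the ko, and the wild-type add-back libraries held 470.5, 509 and 471.5. The ko lay wholly below both other groups, and its change from wild type was −0.20 (SE 0.05, edgeR adjusted p = 0.0053). Rpl10 changed by −0.23 (SE 0.06, edgeR adjusted p = 0.0053). Within sets only the middle one gave a call: Rpl3 was at −0.37 there (edgeR adjusted p = 6.7e-05) and at −0.11 within the low set (edgeR adjusted p = 0.079), and Rpl10 at −0.42 (edgeR adjusted p = 2e-04) and −0.11 (edgeR adjusted p = 0.19). The call of Rpl7a was lost in 13 of 25 alternatives, with −0.12 within the low set (edgeR adjusted p = 0.22).

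Rpsa and Rps6 too were called lower over all libraries and within the middle set but not within the low set. Rpsa ran from 576 to 993 CPM in wild type, and its 3 high-depth libraries held 993, 825 and 971 against 576 to 603 in the others. The ko libraries held 477, 510, 562, 573 and 585. The change was −0.41 (SE 0.14, edgeR adjusted p = 0.021), with −0.27 within the middle set (edgeR adjusted p = 0.025) and −0.03 within the low set (edgeR adjusted p = 0.76), and without the high-depth set the call was lost (edgeR adjusted p = 0.17). For Rps6 the change was −0.25 (SE 0.08, edgeR adjusted p = 0.017) with −0.25 within the middle set (edgeR adjusted p = 0.0067) and −0.02 within the low set (edgeR adjusted p = 0.78). Rps26, which contacts mRNA upstream of the start codon, was also highest in the high-depth wild-type libraries, at 297 to 358 CPM in the other 5 and 577, 484 and 703 in these.

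The core members called higher in the ko were Rpl39, Rps2, Rps27 and Rps28. Rps28, a small-subunit protein at the mRNA exit, ran from 134 to 154 CPM (median 139) in wild type and held 156, 161, 154, 162 and 171 in the ko. These ranges did not overlap, and the change was 0.18 (SE 0.06, edgeR adjusted p = 0.010). It was 0.23 within the low set (edgeR adjusted p = 0.0036) and 0.05 within the middle set (edgeR adjusted p = 0.56). Rps28 shares 88 exonic bases with Kank3 on the opposite strand. Rps2, at the mRNA entry, changed by 0.33 (SE 0.11, edgeR adjusted p = 0.019), and Rps27 by 0.25 (SE 0.10, edgeR adjusted p = 0.042). Within the middle set Rps2 was at 0.05 (edgeR adjusted p = 0.76), Rps27 at −0.11 (edgeR adjusted p = 0.36) and Rpl39 at −0.02 (edgeR adjusted p = 0.87). The call of Rps27 was lost in 11 of 25 alternatives and that of Rpl39 in 10. Rpl39 ran from 81.7 to 194 CPM in wild type and from 163 to 192 in the ko, so the ko libraries lay inside the wild-type range. Only 28.7% of the 50-base stretches of Rps2 and 1.35% of those of Rps27 are unique, the latter being shared above all with Rps27rt.

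**Figure D4:**
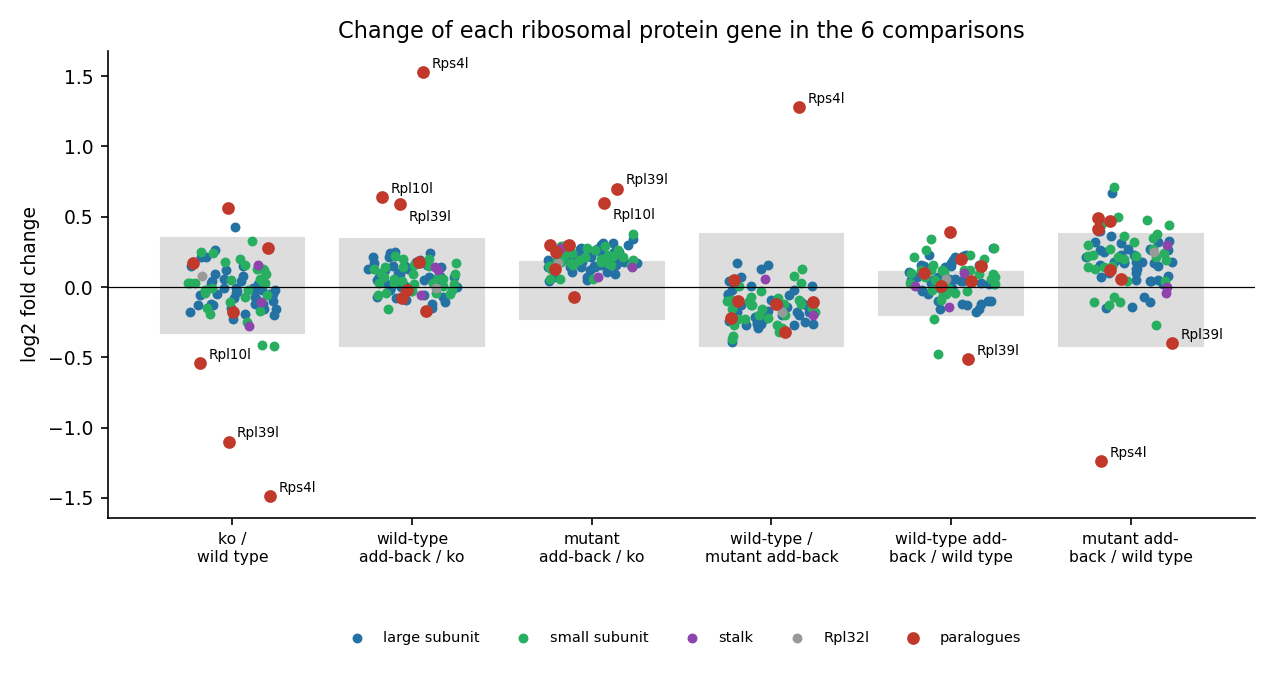
Change of each of the 85 genes in the 6 comparisons (log2 fold change, vertical axis), coloured by subunit or as paralogues, with a grey box from the lower to the upper quartile of all genes tested. In ko against wild type most core members lie inside the box, while Rps4l lies at −1.49 in ko against wild type, 1.53 in wild-type add-back against ko and 1.28 in wild-type against mutant add-back.

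Wild-type Snf2h raised 8 members over the ko and lowered none by the edgeR test, where 45.0% of all genes were called (22.5% higher and 22.4% lower). The 9.41% of members called included Rps4l, Rpl10l and Rpl39l, and in the core Rpl7a (0.25), Rpl7 (0.22), Rpl10 (0.21) and Rpl3 (0.21). DESeq2 called 9 members higher and 1 lower, beside 3362 of all genes higher and 3537 lower. Of these core genes Rpl7 had not been called in the ko, at −0.12 (SE 0.06, edgeR adjusted p = 0.086). Its libraries held 1172, 1245, 1300, 1342 and 1362 CPM in the ko and 1495, 1569 and 1428 in the wild-type add-back, without overlap. The core median was 0.06 and all 77 lay within 0.5, while the median of all genes was −0.01. With library size alone the medians of the 85 and of all genes were −0.01 and −0.08, and scaled to the summed members −0.03 and −0.09, so both shifted together. Within the low set 11 were called higher and 1, Rps28, lower (58.6% of all genes called, 29.7% higher and 28.8% lower). Without wild-type add-back library 2 the count over all libraries was 3 higher (18.6% of all genes). The call of Rpl7a was lost in 11 of 19 alternatives and that of Rpl10 in 10, with edgeR adjusted p-values of 0.10 and 0.067 within the low set. Against wild type, 0 members were called in the wild-type add-back by edgeR or by DESeq2 (1.60% of all genes by edgeR, 0.430% higher and 1.17% lower). By DESeq2, 151 of all genes were higher there and 330 lower. At an unadjusted p under 0.05, 4 were higher and 2 lower, where 15.2% of all genes passed (5.60% higher and 9.61% lower). In the low set alone 10 were higher and 2 lower, where 22.5% of all genes were called (10.7% higher and 11.8% lower).

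The mutant add-back differed from the ko by no called member in edgeR, beside 0.322% of all genes (0.114% higher and 0.208% lower), although all 77 core members lay above the ko with a median of 0.19. At an unadjusted p under 0.05, 21 members were higher and 0 lower, where 15.3% of all genes passed (6.70% higher and 8.64% lower). DESeq2 called 1 member higher, Rpl39l, beside 65 of all genes higher and 272 lower. The low set alone gave 8 called higher and 0 lower (14.6% of all genes called, 6.83% higher and 7.80% lower). The shift rests on mutant library 1: without it the median was 0.03. Rpl8, as an example, held 2736 CPM in mutant library 1 and 1936 in the other mutant library, against 1912 to 2165 in the ko. Of the feeder, ES cell and endoderm markers, the summed feeder markers were at 547 CPM in mutant library 1 and 801 in the other, and the summed endoderm markers at 171 and 178. Both feeder sums lay below the 894 to 2306 CPM of wild-type libraries. Yet of 11 feeder markers tested singly, edgeR called 9 higher and 2 lower in mutant than in wild-type libraries, with a median of 1.69. The feeder sum therefore does not show the direction of most of its markers. The part of any of these markers in the result was not tested.

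Against wild type the mutant add-back held 16 members higher and 1 lower, where 45.5% of all genes were called (22.1% higher and 23.5% lower). All 16 were core genes, 8 of each subunit, led by Rps2 at 0.71 (SE 0.15, edgeR adjusted p = 0.00080) and Rpl39 at 0.67 (SE 0.23, edgeR adjusted p = 0.023), and the lower member was Rps4l at −1.24 (SE 0.21, edgeR adjusted p = 9.1e-05). Rps2 held 203 and 217 CPM in the mutant libraries against 105 to 167 in wild type, so both mutant libraries lay above the range. The wild-type add-back libraries held 155, 204 and 129 CPM, so library 2 of that group lay above it too. Within the low set 57 members were called higher and 2 lower, where 60.3% of all genes were called (30.2% higher and 30.1% lower). The core count was 54 of 77 there, with a median of 0.27. The count moved with mutant library 1: without it 1 member was called higher over all libraries (11.6% of all genes). Within the low set, an alternative chosen after seeing the data, 11 were then higher and 3 lower (48.9% of all genes called, 24.0% higher and 24.9% lower). Without the other mutant library, 27 were higher (15.9% of all genes).

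The direct comparison of the add-backs called Rps4l higher and Rps28 lower with the wild-type protein (37.0% of all genes called, 18.6% higher and 18.4% lower). Rps28 held 151, 150 and 132 CPM with wild-type Snf2h and 196 and 172 with the mutant, for −0.35 (SE 0.09, edgeR adjusted p = 0.0052). The Rps28 call was lost without mutant library 1 (−0.24, edgeR adjusted p = 0.15) and when scaled to the summed members (−0.26, edgeR adjusted p = 0.061). The core median was −0.13. Within the low set 2 members were higher and 21 lower (60.6% of all genes called, 30% higher and 30.6% lower), and without mutant library 1 that became 8 higher and 1 lower (49.3% of all genes called, 25.3% higher and 23.9% lower), with a median of 0.04. The direction of the members' median between the add-backs turned with mutant library 1, whereas Rps4l lay higher with the wild-type protein in each of the 17 alternatives run.

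The stalk proteins, Rplp0 at its base and Rplp1 and Rplp2 as the dimers that bind elongation factors, gave no called change in the 6 comparisons. Rplp0 was at 1917 ± 96.9 CPM (n = 8) in wild type, 1776 ± 48.4 (n = 5) in the ko and 1934 ± 68.6 (n = 3) in the wild-type add-back. Rplp1 fell into depth sets in wild type, at 1502, 1234 and 1607 CPM in the high-depth libraries and 888 to 978 in the others. Its difference was −0.28 in the ko (edgeR adjusted p = 0.099), and 0.09 within the low set (edgeR adjusted p = 0.42). Rplp2 went the other way, at 206 to 279 CPM in the high-depth and 250 to 374 in the other wild-type libraries.

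The effect of Snf2h loss on the members differed between depth sets. Within the middle set 0 members were called higher and 27 lower by edgeR (61.8% of all genes called, 29.9% higher and 31.9% lower). Within the low set 11 were called higher and 5 lower (60.1% of all genes called, 29.3% higher and 30.8% lower). The core medians were −0.15 and 0.08. Only 29 of 85 members had the same sign in both, against 11321 of 14901 genes, and these sets share no library. The test of the difference itself called 14 members, all with a more positive effect in the low set (26.7% of all genes called, 13.6% more positive and 13.2% more negative). The 5 of 85 members called in both sets were all lower, and Rps4l, Rpl39l, Rpl10l and Rpl7l1 were among them. Of the 14901 genes, 6597 were called in both sets: 2863 higher in both, 3232 lower in both and 502 in opposite directions. Wild-type libraries of the low set themselves differed from those of the middle set, with 1 member higher and 35 lower (43.5% of all genes called, 21.9% higher and 21.6% lower). The high-depth wild-type libraries in turn had 23 members higher and 26 lower than the low-depth ones (53.9% of all genes called, 27.3% higher and 26.6% lower). In the low against the middle set the member lower by most was Rpl39, at −0.52 (SE 0.10, edgeR adjusted p = 0.00031). In the ko the same contrast, low against middle, gave 9 higher and 1 lower (43.8% of all genes called, 23.5% higher and 20.3% lower).

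The marker lists moved between these sets too. The 4 endoderm markers tested were all called higher in the ko within the middle set and all lower within the low set, and their sum was 57.5 and 60.5 CPM in wild type and 299 and 306 in the ko of the middle set, against 168 to 174 and 87.4 to 92.0 in the low set. The fifth, Afp, was near 0 (0.0258 CPM in wild type). The summed ES cell markers were at 4239 and 4274 CPM in the ko of the middle set and at 5440 to 6088 in all other libraries, with Pou5f1 at 1396 ± 275 CPM in wild type. Of the 14 feeder markers 11 were tested, and 8 were called higher and 2 lower in the ko (26.8% and 28.2% of all genes), with Dcn, Fap and Lum near 0. Their sum, 894 to 2306 CPM in wild type and 971 to 1122 in the ko, was mostly Fn1. The part of any of these in the member values was not tested.

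**Figure D5:**
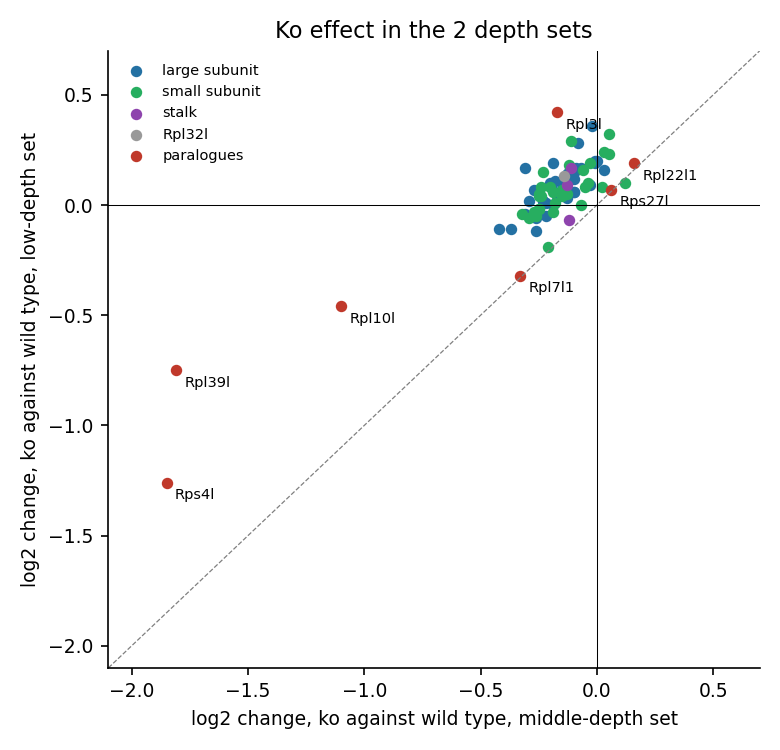
Ko change of each of the 85 genes (log2) within the middle set (horizontal axis) and within the low set (vertical axis), with the line of equal change dashed. Most core members lie left of 0 and above the line, and Rps4l, Rpl39l and Rpl10l lie far below 0 on both axes.

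Genes that work around the ribosomal proteins were counted in the same fit, where 55.0% of all genes were called in the ko (26.8% higher and 28.2% lower) and 22.5% were called higher in the wild-type add-back against the ko. All 31 ribosome assembly factors listed lay lower in the ko, 25 called lower and 0 higher, with a median of −0.33, and 25 were called higher in the wild-type add-back against the ko. The counts held within both sets, with 28 of 31 called lower in each (31.9% of all genes in the middle and 30.8% in the low set). Gnl3, a nucleolar GTPase, held 514 ± 39.5 CPM in wild type and 352 in the ko, a change of −0.55 (edgeR adjusted p = 4.6e-07). Of 78 mitochondrial ribosomal protein genes 10 were called higher and 29 lower in the ko, 50% of them, which is near the share of all genes. Of 9 dedicated chaperones of ribosomal proteins 1 was called higher and 3 lower (44.4% called), among them Bccip at −0.35 (edgeR adjusted p = 6.3e-05).

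Of the 26 other mRNAs listed as 5′ TOP, mostly translation factors, 2 were called higher and 8 lower in the ko, with a median of −0.16. Their own tracts were not examined here. The share called was 38.5%, below the 55.0% of all genes. Eef1a1 was at 6219 ± 1065 CPM in wild type and differed by −0.22 (edgeR adjusted p = 0.065), and Eif3a changed by −0.32 (edgeR adjusted p = 2.4e-05). The 10 tested snoRNA host genes listed as 5′ TOP gave 3 higher and 1 lower (40.0% called). Among 21 regulators of ribosomal protein synthesis 2 were called higher and 13 lower (71.4% called), with a median of −0.35. Myc, which drives ribosome genes, changed by −1.40 (edgeR adjusted p = 0.00080) and Mycn by −1.37 (edgeR adjusted p = 2.8e-11). Larp1, the repressor and stabiliser of 5′ TOP mRNAs, changed by −0.48 (edgeR adjusted p = 9.3e-06), whereas Gabpa differed by −0.04 (edgeR adjusted p = 0.66). Of further cytoplasmic ribosomal protein genes whose names fall outside the rule, Rack1 and Fau were not called and Rpl36al, a copy of Rpl36a, was lower by −0.31 (edgeR adjusted p = 0.0039).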

How the data were processed

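The authors deposited a table of raw counts per gene for 18 libraries, keyed by Entrez identifier and with the exonic bases of each gene in a further column. Per the labels' protocols, RNA was purified with RNeasy columns and libraries were made with a stranded TruSeq mRNA kit. Per the submitters' processing notes, bcl2fastq 2.17 and STAR were used with mm10 (GRCm38). Not given in the sources used here: which release of STAR ran, how reads were counted and against which annotation, the strand setting, and the handling of reads that match several places. Of the 24116 genes, 3581 had no count in any library.

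From the deposited counts, all 18 libraries were fitted in edgeR 4.0.16 (R 4.3.3) with a mean per group, TMM scaling, filterByExpr at a minimum count of 10, and the two-sided robust quasi-likelihood test. P-values were adjusted by Benjamini and Hochberg over the 14901 genes of each comparison, with calls made at an adjusted p below 0.05. Between libraries the biological coefficient of variation was 0.169 (common dispersion). Values within depth sets came from a joint fit with a mean per group and set. Depth sets were cut from library totals at 20 and 30 M counts. The script was tested on simulated data. DESeq2 1.42.0, other scalings and filters, a replicate block and leaving out each library were alternatives. Over all libraries, counts of members of 211 to 141625 per library make counting error small beside the spread, except for Rpl3l (27 to 85 counts). Within a depth set the spread was smaller, with chi-square values per gene from 1.44 between replicates. There counting error is not small for members with few counts, such as Rpl39l and Rpl10l.

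Members were named by rule: the stalk genes and Rpsa, the 7 listed paralogues, the 5 highest per length, the members more than 3 scaled median absolute deviations from the members' median, and up to 5 core genes called in each direction in ko against wild type and in wild-type add-back against ko. Rps26, Rpl29 and Rps4x, and the genes of the lists and around Rps4l, were named after their values were seen. The members and lists were chosen with earlier results of these data known. Sequences and 50-base stretches came from GENCODE M21 transcripts and promoters from RefSeq. Replicate numbers were not used to pair libraries in the main fit, since the labels do not say that equal numbers share a culture. Some genes are not reported here by name, but remain in the counts.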

Additional observations from a re-analysis of the deposited data

Results flagged for a closer look

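The effect of Snf2h loss differed between the low-depth and the middle-depth libraries for 7 of the 24 named members. The test was edgeR's of the difference itself (low minus middle, log2, Benjamini-Hochberg adjusted over all genes). It called 26.7% of all genes, 13.6% more positive and 13.2% more negative, so the count among the named members is near that share. Some of the 24 had been named for their change in the ko. Rpl39l differed by 1.06 (adjusted p = 4e-05), Rpl10l by 0.63 (adjusted p = 0.0056) and Rps4l by 0.59 (adjusted p = 0.0015), and each was lower in the ko in both sets. Rps27 differed by 0.41 (adjusted p = 0.035) and Rpl39 by 0.38 (adjusted p = 0.048), being higher in the ko of the low set only by the test within that set. Rpl10 differed by 0.31 (adjusted p = 0.036) and Rpl3 by 0.26 (adjusted p = 0.031), being called lower within the middle set. Each set holds 2 or 3 libraries a group, and what separates the sets beyond their totals is not given in the labels. Each of the 24 named members and the summed share was also examined for a library far from the others within wild type and within the ko, 50 groups in all, and 0 held one. The rule seeks a single library apart from the rest. It cannot find libraries that stand apart together, as the high-depth wild-type libraries did for Rpl22l1 and Rpsa, so the 0 does not show that the libraries were alike. The add-back groups, with 3 and 2 libraries, were too small for this and were not examined.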

How the results depend on the processing

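Of the named members' values under the alternatives, 2792 kept their side of the threshold (2613 with the same sign and 179 with the sign changed but neither value called), 94 lost and 81 gained a call, and 9 changed sign with a call on one side; the cause was not tested. The ko calls of Rps4l, Rpl39l and Rpl10l held in all 25 alternatives run, as did the Rps4l difference between the add-backs in all 17. Reversed values (log2) were, for wild-type add-back against wild type, Rpl7l1 at −0.27 (within the low set and with depth set as a term) and Rpl4 at 0.16 (low set); for mutant add-back against wild type, Rplp1 at 0.30 (low set), 0.26 (depth set as a term) and 0.27 (without the high-depth set) and Rpl4 at 0.15 (low set); and for ko against wild type within the middle set, Rpl39 at −0.02 and Rps27 at −0.11. Counts of members called are given below as ko against wild type, wild-type add-back against ko, mutant add-back against ko, wild-type against mutant add-back, wild-type add-back against wild type and mutant add-back against wild type where they moved by over 1.5 times. Counts of all genes called in the same direction follow in brackets, and those for the depth sets are given as shares above. With library size alone the counts were 10 higher (4648), then 3 higher (2806) and 1 lower (3927). They were 5 lower between add-backs (3071) and 27 higher for the mutant against wild type (3675). Scaled to the summed members they were 3 higher (2206) and 1 lower (3625) against the ko and 0 lower between add-backs (1858). For the mutant against wild type they were 2 higher (2151) and 4 lower (3864). With a mean of at least 1 CPM they were 7 higher in the ko (3687), 1 lower against the ko (3128) and 2 lower between add-backs (2523). With DESeq2 they were 7 higher in the ko (4165) and 1 lower with wild-type add-back against the ko (3537). DESeq2 also gave 1 higher for the mutant against the ko (65) and 2 lower between add-backs (2767). Within the low set they were 11 higher and 5 lower in the ko, 1 lower with wild-type add-back against the ko, 8 higher for the mutant against the ko, 2 higher and 21 lower between add-backs, 10 higher and 2 lower for wild-type add-back against wild type, and 57 higher and 2 lower for the mutant against wild type. Without the first mutant library in that set, 8 were higher between add-backs and 3 lower for the mutant against wild type. Within the middle set 0 were higher and 27 lower in the ko. With depth set as a term they were 13 higher with wild-type add-back against the ko (4265) and 1 higher for the mutant against the ko (165). They were 14 lower between add-backs (3982) and 2 lower for wild-type add-back against wild type (802). For the mutant against wild type they were 38 higher (4108) and 3 lower (4215). Without the high-depth set, 2 were higher in the ko (4070), 6 lower between add-backs (3166) and 2 lower for the mutant against wild type (3639). The replicate block gave 8 higher (3993) and 18 lower (4099) in the ko and 5 higher with wild-type add-back against the ko (3421). It gave 3 lower between add-backs (2920) and 2 lower for the mutant against wild type (3645). Same-numbered ko and wild-type libraries had correlations from −0.25 to 0.17. These were taken from group means over all depth sets, and same-numbered libraries often lie in different sets, so they cannot show whether the numbers pair the libraries. Leaving out each library gave 2 to 8 higher and 7 to 13 lower in the ko, 3 to 8 higher with wild-type add-back against the ko, 0 to 9 lower between add-backs and 1 to 27 higher for the mutant against wild type. The group shares without the 5 highest members were 2.48%, 2.51%, 2.54% and 2.85%, the wild-type share in the low set alone 3.23%, and the shares without each library 3.47% to 3.56% (wild type), 3.49% to 3.54% (ko), 3.46% to 3.69% (wild-type add-back) and 3.55% to 4.32% (mutant add-back). As alternatives added after seeing the data, scaling to the summed members gave 2 members higher for the difference between sets, and 5 higher and 7 lower for low against middle wild-type libraries; it moved the median of all genes by −0.18 (mutant against ko) and −0.13 (mutant against wild type). At 27 to 85 counts a library, depth limits Rpl3l.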
